A study of Homo sapiens with 6 samples.

Results

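Genes of the actin cytoskeleton were examined in RNA sequencing libraries of HCT116, an established line of human colorectal cancer cells in which the actin filament capping protein CAPG was knocked down. The set held 57 of the 60643 genes in the deposited table, chosen by symbol: the cytoplasmic actins and their transcription factor SRF, proteins of monomer turnover, filament capping, the Arp2/3 complex and its activators, tropomyosins, calponin-family proteins, nonmuscle myosin II, crosslinkers and the ERM proteins, without the gelsolin family to which CAPG belongs. All 57 symbols were found, each on a single row. Every library came from cells carrying the short hairpin construct against CAPG (shCAPG-2 in the labels), under a doxycycline-inducible system; 1 hairpin was used in all of them, and the labels give rectum as the tissue. The cells were either untreated (genotype given as WT, 3 libraries) or given doxycycline for 3 days (100 ng/µl, as the label writes it; genotype given as CAPG knockdown, 3 libraries). Libraries of cells with doxycycline and no hairpin were not analysed here, so the drug and the knockdown cannot be told apart. Nothing in the labels ties the replicates to separate cultures, and p-values therefore measure only how these libraries scatter, which could be technical variation.

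Actin monomers (G-actin) assemble into filaments (F-actin) whose ends grow, shrink, branch or are capped by the proteins of this set. Free G-actin holds the coactivators MRTFA and MRTFB out of the nucleus, and when it is used up they bind SRF at CArG boxes and raise the transcription of many cytoskeletal genes, SRF among them. WAVE and WASP proteins switch on the Arp2/3 complex at the cell edge, formins such as DIAPH1 build unbranched filaments, and tropomyosin and myosin II make filaments contractile. In epithelial tumour cells these proteins shape junctions, protrusion and division.

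Values are FPKM (fragments scaled to transcript length and to library size), which set genes on a scale per length. Spacing of the lowest values gave an estimated 34000000 fragments in untreated replicate 3 and 42700000 to 43700000 fragments in the other 5 libraries, at which 3 fragments in a transcript of 1 kb amount to 0.0936 to 0.121 FPKM. The targeted gene CAPG was at 61.1, 56.9 and 53.7 FPKM without doxycycline and at 8.18, 8.03 and 9.97 FPKM with it, 15.3% of the untreated mean (limma log2 change -2.59, SE 0.10, adjusted p = 7.24e-06). The epithelial genes EPCAM, CDH1, KRT8, KRT18, KRT19 and CLDN4 all exceeded 1 FPKM, EPCAM being called higher with doxycycline (181, 192 and 197 FPKM without, 224, 236 and 263 FPKM with; limma adjusted p = 0.0401), while KRT20 and VIL1, which mark differentiated intestinal cells, did not. Of 5 endothelial markers 0 reached 1 FPKM, of 8 fibroblast markers 1 did (COL1A1), and of 7 leukocyte markers 2 did (CD68 and the coronin gene CORO1A, both lower with doxycycline), with 2 fibroblast and 2 leukocyte markers listed at 0 in every library. The 7 smooth muscle markers, which overlap with the actin machinery, summed to between 31.4 and 37.0 FPKM without and between 39.7 and 42.3 FPKM with doxycycline. Among them DES and SMTN were called higher, while ACTA2 had a negative estimate (log2 -0.31) and was not called. CNN1, MYH11, LMOD1 and MYOCD stayed under 1 FPKM. The part of these markers in the results below was not tested. In bulk libraries, fewer cells of a kind and less RNA per cell cannot be told apart. Treated replicate 3 stood apart from the other treated libraries, with a score of 17.19 on principal component 2 (21.0% of the variance) against -12.24 and -13.05, and its FPKM values summed to 586911 where the other 5 libraries summed to between 521832 and 536037.

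Most actin genes did not pass the test. Of the 57 genes, 56 reached 1 FPKM in at least 3 libraries and were tested; the plastin LCP1 was not. With doxycycline 3 fell (SRF, WASF2 and PFN2) and 2 rose (ACTR3 and TPM3) by limma at an adjusted p under 0.05, which is 8.93% of the tested members where 8.46% of all 14475 tested genes were called. By direction the shares were 3.57% higher and 5.36% lower, beside 3.69% and 4.77% of all tested genes. The share called was thus near that of all genes, and the median log2 change was 0.03 for the members and -0.00 for all tested genes. It was -0.02 for the members with libraries scaled to equal totals and -0.05 after quantile normalization. In 18 members (32.1%) every treated library lay above every untreated one and in 8 (14.3%) below, where 17% and 17.5% of all tested genes did so. The members scattered less within groups. The median SD as a percentage of the mean was 6.85% without and 6.83% with doxycycline, against 9.30% and 9.90% for all tested genes. The part of this scatter in the shares was not tested. The calls depended on the libraries. SRF and WASF2 were called whichever of the 6 libraries was omitted. The calls of PFN2 and ACTR3 were lost on each omission except that of treated replicate 3, and that of TPM3 was lost without untreated replicates 1, 2 and 3 and without treated replicate 2 (values below). Without treated replicate 3 the fit called 3 members higher and 4 lower (12.5%, TPM4 and MYL12B added), where it called 7.01% of all genes it tested. A correction of the values for transcript length and GC content called 10 members higher and 5 lower (26.8%), where it called 16.2% of all genes it tested, 7.84% higher and 8.31% lower. The 5 members called without the correction kept their calls under it.

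**Figure D1:**
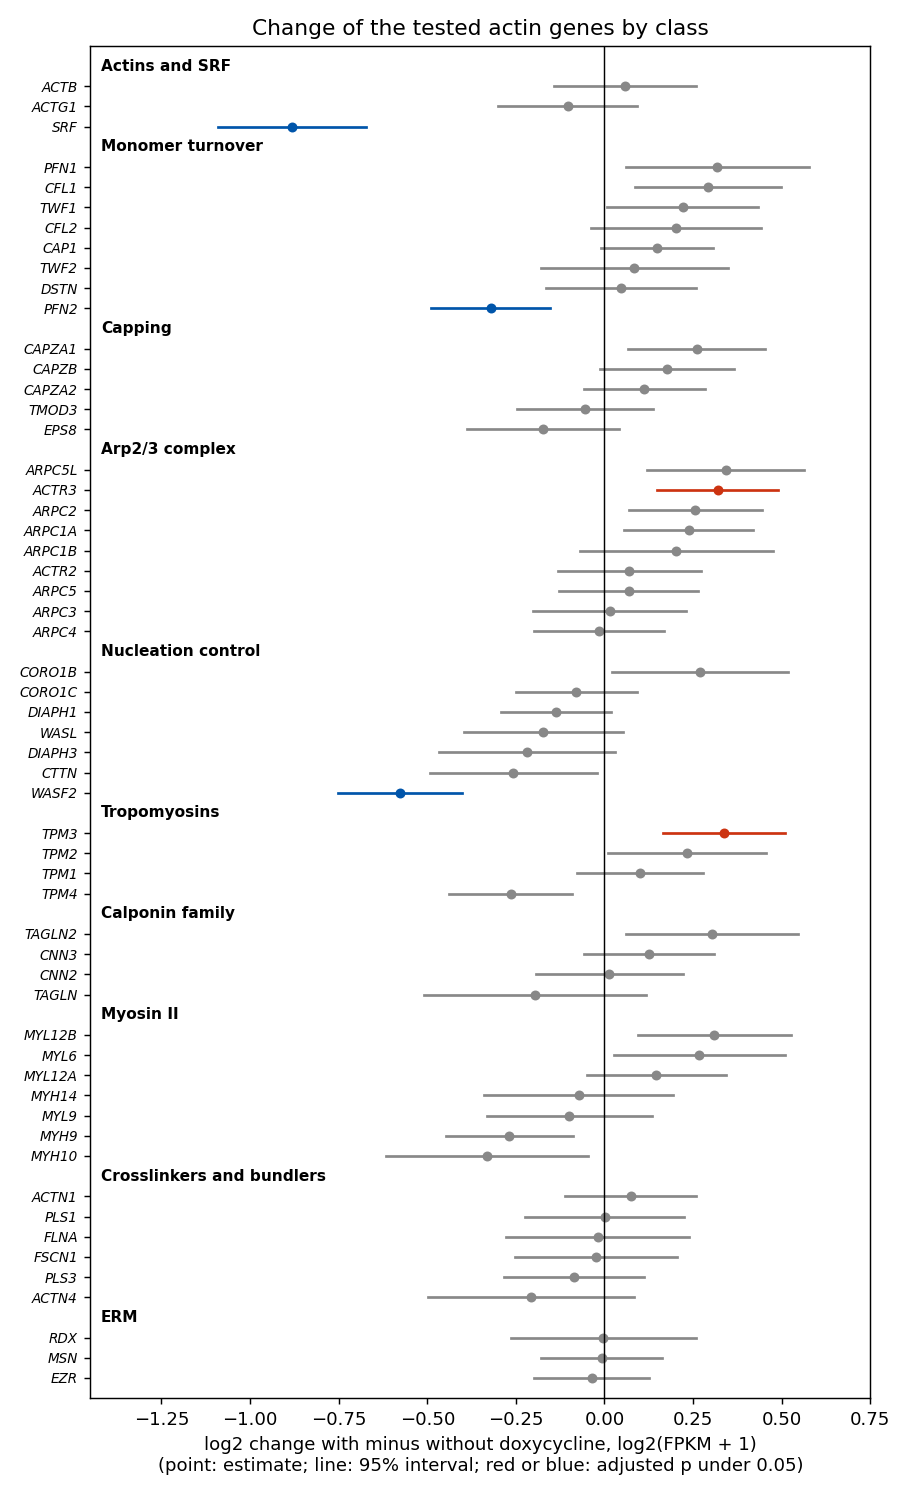
Estimated log2 change (with minus without doxycycline, log2(FPKM + 1)) with its 95% interval for each of the 56 tested genes, grouped by class. SRF and WASF2 lie farthest from 0, at -0.88 and -0.58, and most other intervals include 0.

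SRF, the transcription factor that binds CArG boxes, had the largest change among the 56 tested genes. It was at 13.4, 12.0 and 11.7 FPKM without doxycycline and at 5.99, 6.43 and 6.27 FPKM with it. The treated libraries lay close together and well below the untreated ones, at 50.5% of their mean. The log2 change was -0.88 (SE 0.09, limma adjusted p = 0.00228, and at most 0.0151 when any library was left out). SRF (ENSG00000112658) lies on chromosome 6, 43171269 to 43181506 (GRCh38, plus strand).

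Both cytoplasmic actin genes stayed high. ACTG1, gamma-actin, was at 2082, 1809 and 1699 FPKM without and 1716, 1727 and 1742 FPKM with doxycycline, and ranked 17th of all genes by mean level. ACTB, beta-actin, was at 914, 851 and 773 FPKM without and 832, 858 and 949 FPKM with doxycycline. For both genes the groups overlapped. The 95% intervals of the log2 change were -0.30 to 0.09 for ACTG1 and -0.14 to 0.26 for ACTB (limma adjusted p = 0.479 and 0.72), so that a fall of the size seen for SRF lies outside both. ACTB made up 30.5%, 32.0% and 31.3% of the summed level of the pair without doxycycline and 32.7%, 33.2% and 35.3% with it, a small displacement without overlap.

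**Figure D2:**
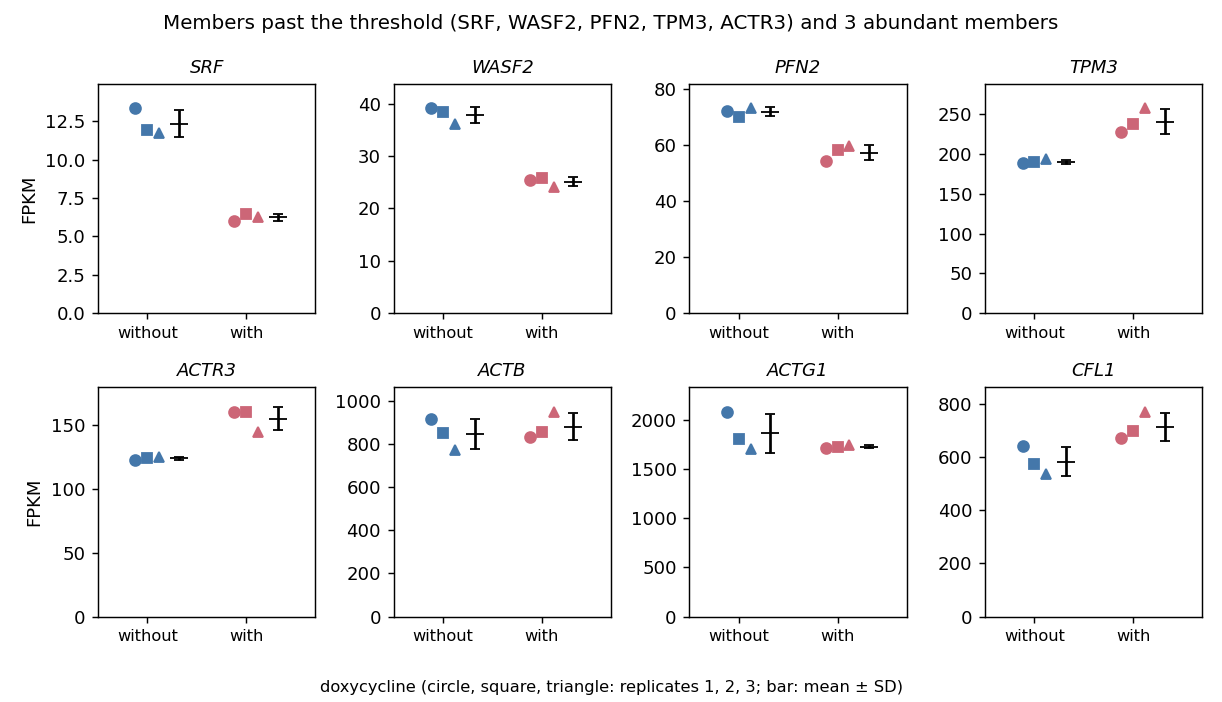
FPKM of 8 members in each library (symbols mark replicates 1, 2 and 3; bars give mean ± SD, n = 3 per group; every axis starts at 0). SRF, WASF2 and PFN2 are lower and TPM3 and ACTR3 higher with doxycycline without overlap, ACTB and ACTG1 overlap, and CFL1 is higher in all 3 treated libraries without passing the test.

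The promoters bear on SRF because SRF is itself a target of SRF. RefSeq promoters (250 bases before to 50 after the start, GRCh38.p14) were at hand for 48 of the 57 members. A single promoter was kept per gene, so other starts of a gene were not searched. Of these, 5 (10.4%) held a CArG box, searched by its name's consensus on both strands, where 351 of all 27305 promoters (1.29%) did. No promoter was at hand for ACTB, WASF2, PFN2, ARPC1B, CTTN, EPS8, FSCN1, MYL9 and TAGLN, so these were not searched. The SRF promoter held a pair, CCATATAAGG at 30 and CCATAAAAGG at 10 bases before the start. The matched stretches are shown with 20 bases on each side, because these 5 genes carry a box of this kind and yet had unlike changes; capitals mark the box.
SRF, chr6:43171219-43171288, plus strand: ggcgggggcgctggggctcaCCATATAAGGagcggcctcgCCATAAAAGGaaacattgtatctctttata
ACTG1, chr17:81512864-81512913, minus strand: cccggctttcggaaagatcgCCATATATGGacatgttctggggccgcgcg
CNN2, chr19:1026499-1026548, plus strand: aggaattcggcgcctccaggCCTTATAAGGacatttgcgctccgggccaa
FLNA, chrX:154374699-154374748, minus strand: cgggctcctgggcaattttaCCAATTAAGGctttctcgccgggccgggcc
TPM4, chr19:16067345-16067394, plus strand: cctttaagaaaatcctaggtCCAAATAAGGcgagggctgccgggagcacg
Among these genes the log2 change was -0.88 for SRF, -0.26 for TPM4, -0.10 for ACTG1, -0.02 for FLNA and 0.01 for CNN2, and only SRF passed the test. Over all tested genes with a promoter, the median change was -0.02 in the 96 with a box and -0.00 in the 9851 without. A match describes the letters and does not show binding.

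Other genes of the SRF circuit moved in both directions. The focal adhesion gene VCL, which encodes vinculin, was at 53.3, 48.7 and 50.8 FPKM without and 37.7, 38.8 and 33.3 FPKM with doxycycline (log2 -0.47, SE 0.09, limma adjusted p = 0.0161). Its call was lost without untreated replicate 1 (0.052) and without untreated replicate 2 (0.0582), and also without a filter on low values (0.072). The immediate-early gene IER2 was at 57.7, 51.8 and 48.1 FPKM without and 75.8, 78.3 and 92.3 FPKM with doxycycline (log2 0.63, SE 0.10, adjusted p = 0.00957, and 0.0697 without a filter on low values). JUNB, an AP-1 subunit and immediate-early gene, was called higher as well (57.5 ± 5.60 to 77.3 ± 9.20 FPKM, SD, n = 3 each, log2 0.42, adjusted p = 0.043). Its call was lost on omission of any of the 6 libraries (adjusted p 0.0534 to 0.129). Of 16 tested cofactors and targets of SRF outside the set, these were the 2 that rose and the 1 that fell, while at an unadjusted p 3 were higher and 3 lower. That is 18.8% called, where 8.46% of all tested genes were, and before adjustment 18.8% in each direction, where 13.6% of all were higher and 14.3% lower. EGR1 was at 41.8, 40.6 and 37.9 FPKM without and 42.8, 44.2 and 46.1 FPKM with doxycycline (adjusted p = 0.267), and FOS, CCN1 and FHL2 had overlapping groups. Neither coactivator gene passed the test: MRTFA ranged from 7.26 to 13.5 FPKM without and from 7.89 to 12.2 FPKM with doxycycline, and MRTFB from 12.1 to 13.2 and from 6.44 to 13.2 FPKM.

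Among the genes that start filaments, a pair of WAVE genes fell, 1 in the set and 1 outside it. WASF2, which encodes the WAVE2 protein that activates Arp2/3 downstream of Rac, was at 39.2, 38.4 and 36.2 FPKM without and 25.4, 25.8 and 24.1 FPKM with doxycycline, 66.2% of the untreated mean. The log2 change was -0.58 (SE 0.08, limma adjusted p = 0.0051, and at most 0.0305 when any library was left out). WASF2 (ENSG00000158195) lies on chromosome 1, 27404230 to 27490167 (GRCh38, minus strand). Its paralog WASF1 (WAVE1), from the list of related genes, was at 17.3, 17.9 and 16.3 FPKM without and 10.4, 10.6 and 8.88 FPKM with doxycycline. That is a log2 change of -0.73 (SE 0.10, adjusted p = 0.00466, at most 0.0274 when any library was left out). For both genes all treated libraries lay far below all untreated ones. WASF3 was near 2 FPKM in both groups (log2 -0.07, adjusted p = 0.775).

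The partners with which WAVE proteins form a complex did not pass the test and did not share a direction. BRK1, the smallest subunit, was at 77.3, 79.3 and 77.3 FPKM without and 54.8, 56.9 and 72.9 FPKM with doxycycline (log2 -0.35, adjusted p = 0.0758), with treated replicate 3 nearest to the untreated libraries. CYFIP1, the Rac-binding subunit, was at 30.6 ± 1.92 and 25.1 ± 2.11 FPKM (SD, n = 3 each, adjusted p = 0.0875). NCKAP1, its scaffold partner, was at 34.1 ± 1.45 and 36.0 ± 1.31 FPKM (adjusted p = 0.545), and ABI1 at 16.1 ± 0.712 and 18.3 ± 1.41 FPKM (0.236). Of the 17 tested genes in the list of WAVE subunits and other nucleators, WASF1 alone fell and 0 rose by limma; before adjustment 6 were lower and 0 higher at 0.05. That is 5.88% called, where 8.46% of all tested genes were, and 35.3% lower before adjustment, where 14.3% of all tested genes were lower and 13.6% higher.

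**Figure D3:**
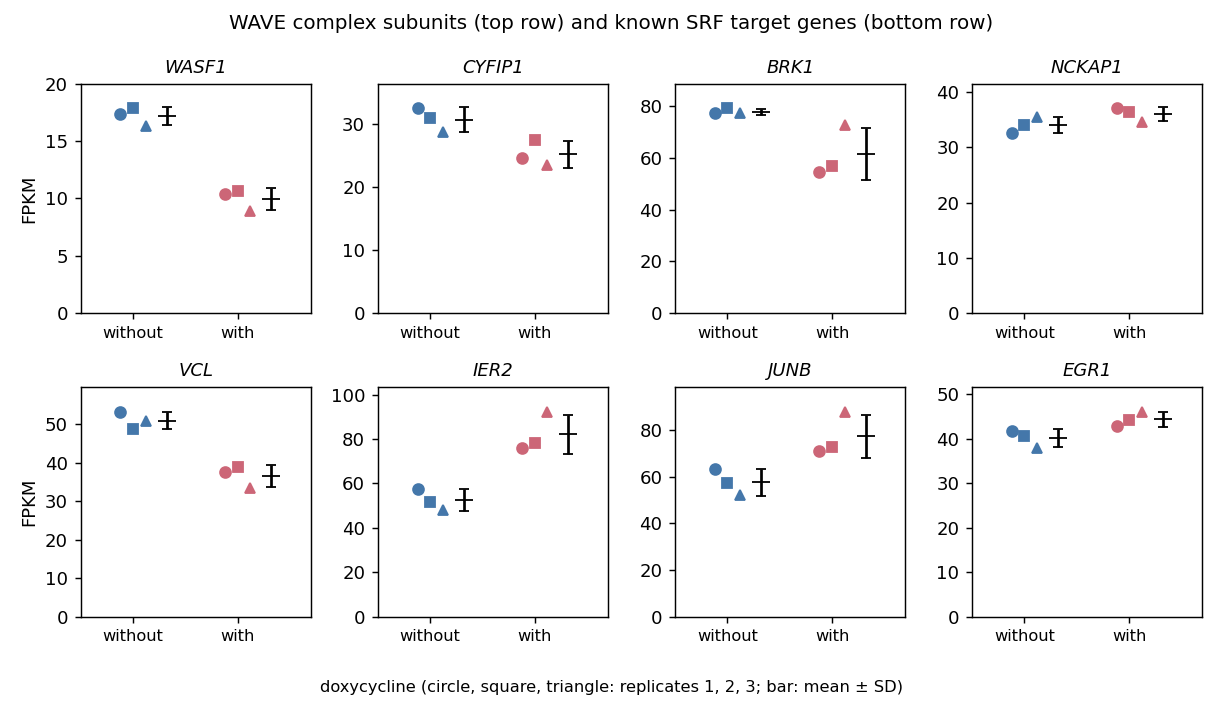
FPKM of 4 WAVE complex subunits (top row) and 4 known SRF targets (bottom row) in each library (symbols mark replicates 1, 2 and 3; bars give mean ± SD, n = 3 per group; every axis starts at 0). WASF1 and VCL are lower and IER2 and JUNB higher with doxycycline without overlap. BRK1 (lower) and EGR1 (higher) do not overlap either but did not pass the test, while NCKAP1 overlaps.

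None of the 6 remaining nucleation genes passed the test, where 8.46% of all tested genes did. WASL, the gene of N-WASP, was at 12.2, 13.2 and 15.3 FPKM without and 11.9, 11.8 and 11.8 FPKM with doxycycline, and the formin gene DIAPH1 at 96.9, 94.4 and 93.7 and at 85.7, 85.9 and 87.3 FPKM. In both the groups did not overlap, yet the limma adjusted p-values were 0.293 and 0.23. The mitotic formin gene DIAPH3 (log2 -0.22), the branch-stabilizing cortactin gene CTTN (-0.26), CORO1C (-0.08) and CORO1B (0.27), coronins that remodel branches, did not pass either. In this class of 7 genes 6 had a negative estimate, WASF2 included, and 1 a positive one. The same counts were found under each of the 3 other scalings and with the length and GC correction. Of all 14475 tested genes 7299 had a negative estimate, and genes measured in the same libraries are not independent.

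The Arp2/3 complex, which nucleates branches, had estimates on the positive side for 8 of its 9 subunit genes (median log2 change 0.20). That count was 7 with equal totals or after the length and GC correction, and 6 after quantile normalization. Of all 14475 tested genes 7176 had a positive estimate, and subunits measured in the same libraries are not independent. ACTR3, the gene of the actin-related subunit Arp3, passed the test. It was at 123, 125 and 125 FPKM without and 160, 161 and 145 FPKM with doxycycline (log2 0.32, SE 0.08, limma adjusted p = 0.0341). The adjusted p was 0.077 to 0.138 when any library other than treated replicate 3 was left out and 0.0111 without that library. ACTR3 was not called with equal totals, after quantile normalization, without a filter on low values (0.0928) or without trend and robust fitting (0.0617). ACTR3 (ENSG00000115091) lies on chromosome 2, 113890063 to 113962596 (GRCh38, plus strand).

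Other subunits did not reach the threshold. ARPC5L, an alternative form of the ARPC5 subunit, had the highest estimate of the set, at 35.4, 34.2 and 38.0 FPKM without and 42.2, 43.3 and 52.3 FPKM with doxycycline (log2 0.34, adjusted p = 0.0613). Its share of the summed ARPC5 and ARPC5L level was 37.7%, 35.8% and 37.8% without and 40.8%, 42.1% and 42.4% with doxycycline. ARPC1A (91.3 ± 5.42 and 108 ± 5.96 FPKM) and ARPC2 (142 ± 3.07 and 170 ± 14.8 FPKM) had groups that did not overlap (SD, n = 3 each, adjusted p = 0.0959 and 0.0852). ARPC1B, ARPC3, ARPC4, ARPC5 and ACTR2 overlapped. ARPC4, the 1 subunit with a negative estimate (log2 -0.02), was at 67.9, 62.9 and 61.5 FPKM without and 59.2, 63.8 and 67.2 FPKM with doxycycline.

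Among the proteins that bind or recycle monomers, PFN2 fell. PFN2 encodes profilin 2, the less abundant profilin, which feeds monomers to formins and WAVE. It was at 72.2, 70.0 and 73.0 FPKM without and 54.1, 58.1 and 59.5 FPKM with doxycycline (log2 -0.32, SE 0.07, limma adjusted p = 0.0318). The adjusted p was 0.0757 to 0.116 when any library other than treated replicate 3 was left out, 0.0882 without a filter on low values and 0.0577 without trend and robust fitting. PFN2 (ENSG00000070087) lies on chromosome 3, 149964904 to 150050788 (GRCh38, minus strand). PFN1, the main profilin, stood the other way, at 888, 784 and 667 FPKM without and 891, 944 and 1071 FPKM with doxycycline, with the top untreated library just under the lowest treated one (log2 0.32, adjusted p = 0.109). PFN2 thus made up 7.51%, 8.20% and 9.87% of the profilin sum without doxycycline and 5.73%, 5.79% and 5.26% with it.

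The cofilins, which sever and depolymerize filaments, did not pass. CFL1, the main form, was at 640, 573 and 535 FPKM without and 672, 697 and 770 FPKM with doxycycline (log2 0.29, adjusted p = 0.0781). CFL2 was at 25.2, 29.8 and 33.7 FPKM without and 32.5, 34.3 and 35.0 FPKM with doxycycline and DSTN, the gene of destrin, at 177 ± 13.7 and 183 ± 17.3 FPKM (SD, n = 3 each), with overlap in both. The twinfilin gene TWF1 (56.0, 61.9 and 70.4 against 71.7, 71.0 and 76.3 FPKM) and the cyclase-associated protein gene CAP1 (128, 136 and 134 against 146, 150 and 146 FPKM) did not overlap but had adjusted p-values of 0.164 and 0.207. TWF2 overlapped. In this class of 8 genes 7 had positive estimates, a count that was 6 with equal totals and after quantile normalization. Of all 14475 tested genes 7176 had a positive estimate.

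Capping genes, whose products block the barbed end as CAPG does or the pointed end, held 0 calls in 5. Of all tested genes 8.46% were called. The subunits of the capping protein CapZ were each higher in all 3 treated libraries, as were 17% of all tested genes. For CAPZA2 the margin was small (highest untreated library 55.7 FPKM, lowest treated 56.0 FPKM). CAPZA1 was at 101, 102 and 118 FPKM without and 124, 126 and 135 FPKM with doxycycline (log2 0.26, limma adjusted p = 0.0906), CAPZB at 55.1 ± 1.83 and 62.5 ± 5.24 FPKM (0.207) and CAPZA2 at 53.6 ± 1.92 and 58.0 ± 2.81 FPKM (0.373; SD, n = 3 each). TMOD3, the pointed-end capper tropomodulin 3, and EPS8, a barbed-end capper and bundler, overlapped, at 28.5 and 27.4 FPKM and at 24.6 and 21.7 FPKM on average. Summed over the 5 genes, capping transcripts stood at 261, 263 and 283 FPKM without and 288, 299 and 306 FPKM with doxycycline.

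Of the tropomyosins, which coat filaments and set access of myosin and cofilin, 1 of 4 passed the test, beside 8.46% of all tested genes. TPM3 was at 188, 189 and 193 FPKM without and 227, 238 and 258 FPKM with doxycycline (log2 0.34, SE 0.08, limma adjusted p = 0.0308). The adjusted p was 0.0703 to 0.131 without untreated replicates 1, 2 and 3 or treated replicate 2, 0.0881 without a filter on low values and 0.0559 without trend and robust fitting. TPM3 (ENSG00000143549) lies on chromosome 1, 154155304 to 154194648 (GRCh38, minus strand). TPM4 stood the other way, at 142, 144 and 148 FPKM without and 117, 114 and 129 FPKM with doxycycline (log2 -0.26, adjusted p = 0.0638, and 0.0198 without treated replicate 3). TPM2 was at 122, 116 and 114 and at 126, 131 and 160 FPKM (adjusted p = 0.163), and TPM1, the least abundant, at 27.5, 27.7 and 28.0 and at 28.4, 29.2 and 31.8 FPKM (0.445).

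Within the summed tropomyosin level TPM3 held 39.3%, 39.7% and 40.1% without doxycycline and 45.6%, 46.5% and 44.5% with it. TPM4 held 29.6%, 30.2% and 30.6% and then 23.6%, 22.3% and 22.3%. These shares do not depend on how libraries are scaled against each other, and they overlapped between groups for neither gene. They are descriptions without a test.

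**Figure D4:**
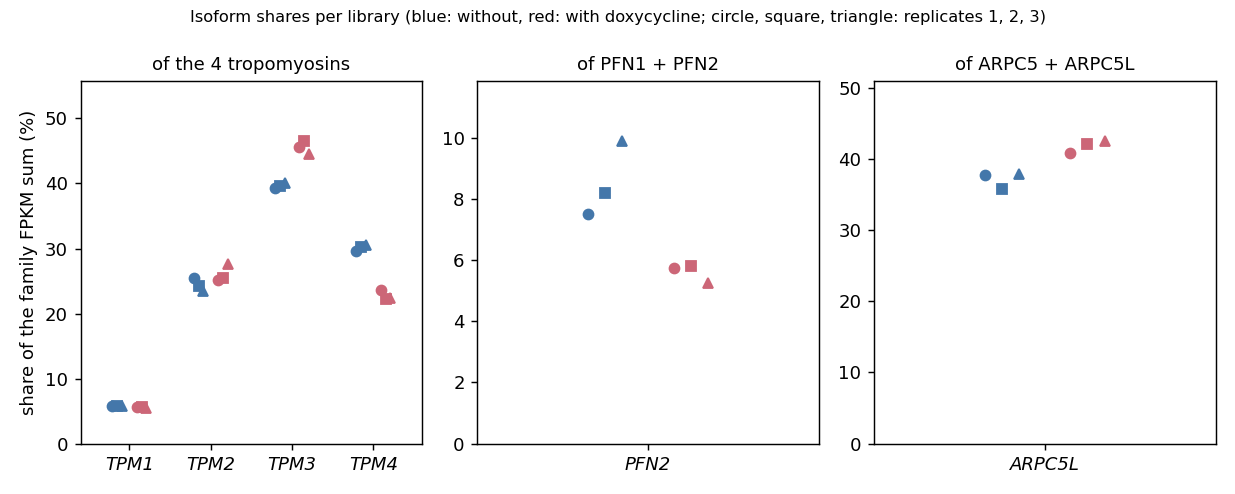
Share of each isoform in the summed FPKM of its family, per library (blue without, red with doxycycline; symbols mark replicates 1, 2 and 3). TPM3 takes a larger and TPM4 a smaller share in all 3 treated libraries, PFN2 a smaller share of the profilins and ARPC5L a larger share of its pair.

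Of the calponin family, 0 of 4 passed, where 8.46% of all tested genes did. TAGLN2, transgelin 2, was at 62.3, 57.3 and 57.7 FPKM without and 68.9, 65.6 and 86.6 FPKM with doxycycline (log2 0.30, limma adjusted p = 0.105), with treated replicate 3 well above the rest. The smooth muscle gene TAGLN was near the bottom of the set, at 5.33, 4.45 and 3.51 FPKM without and 3.62, 3.38 and 4.12 FPKM with doxycycline. CNN2 and CNN3, actin-binding calponins of nonmuscle cells, overlapped, at 87.0 and 87.6 FPKM and at 86.3 and 94.3 FPKM on average.

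Of the nonmuscle myosin II genes, which make the motor that contracts filaments, 0 of 7 passed the test, beside 8.46% of all tested genes. MYH9, the main heavy chain, was at 67.0, 63.3 and 61.8 FPKM without and 56.0, 53.6 and 49.5 FPKM with doxycycline (log2 -0.27, limma adjusted p = 0.0674). MYH10 was at 21.8, 21.8 and 20.8 and at 18.6, 19.1 and 13.4 FPKM (log2 -0.33, adjusted p = 0.127), with treated replicate 3 lowest, and MYH14 overlapped (16.5 ± 2.38 and 15.6 ± 1.60 FPKM, SD, n = 3 each). Of the 4 light chains 3 had positive estimates, as did 7176 of all 14475 tested genes. The essential light chain gene MYL6 was at 500, 478 and 439 FPKM without and 517, 533 and 666 FPKM with doxycycline (log2 0.27, adjusted p = 0.141). The regulatory light chain gene MYL12B was at 262, 252 and 254 and at 293, 299 and 366 FPKM (log2 0.31, adjusted p = 0.0753, and 0.0435 without treated replicate 3). MYL12A was at 227, 236 and 235 and at 245, 242 and 289 FPKM (adjusted p = 0.312). MYL12A and MYL12B are near-identical neighbours that can exchange reads, so the split between them is uncertain. MYL9, the light chain of smooth muscle and stress fibres, was far lower, at 15.2 ± 0.660 and 14.2 ± 1.83 FPKM, and overlapped. After quantile normalization MYL6 and MYL12B were called higher and MYH9 lower. MYL12B was also called with equal totals, and MYL12B and MYH9 with the length and GC correction.

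Crosslinkers, which bundle or net filaments, and ERM proteins, which tie them to the membrane, held no call. None of 6 tested crosslinkers and none of 3 ERM genes was called (0 of 9), where 8.46% of all tested genes were. None of the 9 had groups that did not overlap, a pattern seen upward in 17% and downward in 17.5% of the background. At an unadjusted limma p under 0.05 the count was again 0 of 9, beside background shares of 13.6% (up) and 14.3% (down). EZR, ezrin, the most abundant ERM gene, was at 275, 274 and 269 FPKM without and 260, 259 and 279 FPKM with doxycycline, a log2 change between -0.20 and 0.13 (95% interval). RDX and MSN had estimates of -0.00 and -0.01. FSCN1, the filopodial bundler fascin, was at 109 ± 13.8 and 107 ± 6.90 FPKM and FLNA, filamin A, at 94.2 ± 9.95 and 93.1 ± 12.8 FPKM (SD, n = 3 each). ACTN4, an alpha-actinin, varied most among untreated libraries in this class of tested genes, at 230, 199 and 166 FPKM without and 185, 181 and 148 FPKM with doxycycline. ACTN1 (48.7 and 51.2 FPKM), PLS1 (26.5 and 26.5) and PLS3 (50.9 and 47.8), the second alpha-actinin and 2 plastins, overlapped. The leukocyte plastin LCP1, not tested, was at 0.665, 1.25 and 0.619 FPKM without and 0.300, 0.324 and 0.646 FPKM with doxycycline.

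Among the upstream switches, the Rac and Cdc42 effector kinase gene PAK1 fell. It was at 24.6, 22.2 and 25.9 FPKM without and 18.7, 18.1 and 19.6 FPKM with doxycycline (log2 -0.35, SE 0.09, limma adjusted p = 0.0417). The adjusted p was 0.0887 to 0.131 when any library other than treated replicate 3 was left out, 0.117 without a filter on low values and 0.0603 without trend and robust fitting. The cofilin phosphatase gene SSH1 was at 25.7, 23.8 and 22.5 FPKM without and 19.3, 18.8 and 14.3 FPKM with doxycycline and did not pass (adjusted p = 0.05). The lists of phosphatases (8 tested) and of other filament proteins (20 tested) held 0 calls by limma. They had 0 genes higher and 2 and 3 genes lower (25% and 15%) at an unadjusted p under 0.05. Over the whole list of 93 tested related genes 2 rose and 3 fell (5.38%), with a median log2 change of -0.06. Both figures lay below the background, a called share of 8.46% and a median of -0.00 over the 14475 genes. At an unadjusted p under 0.05, 6.45% of the related genes were higher and 20.4% lower, where 13.6% and 14.3% of all tested genes were. For the members themselves these shares were 25% higher and 12.5% lower.

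Transcript length moved with the small changes. Across the 56 tested members the Spearman correlation of the log2 change with the longest annotated transcript was -0.45, and across 14406 tested genes it was -0.15; the points share the same 6 libraries. Computed for single treated libraries against the untreated mean, the members' value was -0.39, -0.30 and -0.54 in treated replicates 1, 2 and 3, and that of all genes -0.01, -0.02 and -0.32. Of 22 members with transcripts up to 3000 bases 17 had a positive estimate (77.3%), against 14 of 34 longer ones (41.2%). For all tested genes the shares were 55.9% and 44.2%. The myosin light chains, PFN1, CFL1 and most Arp2/3 subunits belong to the short group and the heavy chains to the long one, and the part of length in their changes was not tested beyond the correction given above. SRF, with a longest transcript of 4202 bases, and WASF2, with 5676, were called in that correction as well. The correction also called MYL12B, PFN1, CFL1, ARPC1A, ARPC2, ARPC5L, CAPZA1 and TAGLN2 higher, and MYH9 and TPM4 lower. ARPC1B, ARPC3, ARPC4, MYL6, MYL9, MYL12A, MYH10 and MYH14 were not called in it.

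**Figure D5:**
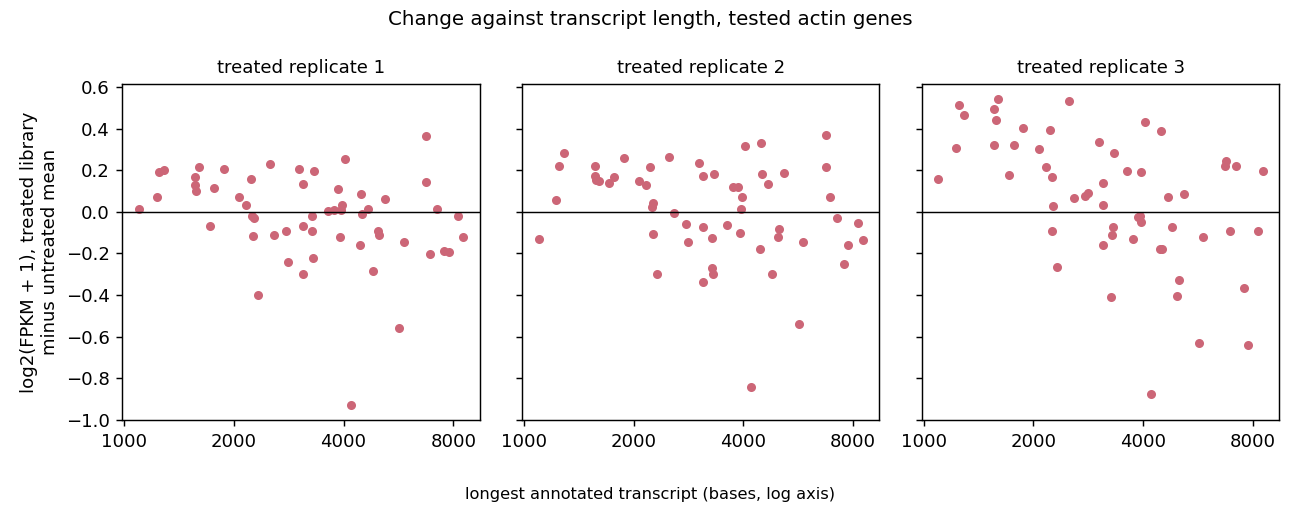
Difference of log2(FPKM + 1) between each treated library and the untreated mean, against the longest annotated transcript (log axis), for the 56 tested members. Short transcripts lie higher than long ones most visibly in treated replicate 3 (Spearman -0.54), and SRF is the lowest point in each panel.

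Reads shared with related sequences limit a few values. Pseudogenes named after a member filled 100 rows for 23 of the 57 genes, but their summed level was only 0.899% to 1.10% of that of the members in any library. ACTG1 had 20 such rows and ACTB 10, at most 2.82 and 1.22 FPKM in sum in either group. Single members had more beside them. TWF1 had a pseudogene row at 34.1 FPKM without and 37.1 FPKM with doxycycline beside 62.8 and 73.0 FPKM for TWF1. The pseudogenes of CAPZA1 summed to 11.1 and 14.6 FPKM beside 107 and 128 FPKM for the gene, and those of DSTN (9.25 FPKM without doxycycline), TPM3 (7.57) and ARPC3 (4.66) were smaller. SRF and WASF2 had no such row, and the gene annotated over WASF2 was listed at 0. PFN2 overlaps TMEM183B, a gene at 31.3 FPKM on average, and since no source used here says whether the counting used strand, reads of the pair may not be fully separated. Overlapping genes with levels that bear on a member were also found for ARPC1B (PDAP1, 101 FPKM), MYL6 (MYL6B, 50.1), CAPZB (MICOS10, 46.3), ARPC4 (TADA3, 34.4), MYH10 (NDEL1, 22.9), TMOD3 (LEO1, 20.7) and TAGLN (PCSK7, 8.09).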

How the data were processed

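The deposited table gives 1 value per gene and library, treated as FPKM because the authors' values were not whole and did not sum to a fixed total; its header names no unit. No roles are given for the tools listed (STAR, BWA and Bowtie; kallisto, RSEM and Cufflinks), and the build is listed as hg19, per the submitters' processing notes. The loci were those of GRCh38: of 39331 identifiers found in GENCODE 29, 39321 had its locus once 1 was added to the start. Depth was estimated from the lowest values of 3640 single-exon genes: with 260 to 290 bases taken off each length, 91.5% to 94.9% of values below 4.5 fragments were whole within 0.05, and without this at most 32.3%.

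The test was limma (version 3.58.1, R 4.3.3; trended, robust, group as the only term) on log2(FPKM + 1), for genes reaching 1 FPKM in 3 or more libraries, two-sided, with Benjamini-Hochberg adjustment over all 14475 genes at 0.05. The fold of low genes is understated on this scale. The fit was tested on simulated data. No outcome of that is given here, so it does not bear on the calls. The CAPG check also had an exact permutation test (p = 0.1, the smallest that 3 against 3 allow). Named were all members, CAPG and each related gene past the threshold; other related genes, markers and subunits given with values were chosen after these were seen. The members and lists were chosen with earlier results of these data known. Alternatives covered the pseudocount, filters, scalings, length and GC, the replicate block, the variance model and each library left out; the test for count tables did not apply. The table named no columns of other samples. Proteins were not compared. Intervals cover the spread between libraries. The results of some related lists are not reported here.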

Additional observations from a re-analysis of the deposited data

How the results depend on the processing

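CAPG, SRF and WASF2 were called lower in all 15 alternatives, and over 839 refits of single members 754 kept direction and call, 25 lost a call, 20 gained a call and 40 changed sign. The sign changes concerned 14 uncalled members with estimates near 0, and 0 of them passed the test under that alternative (lowest limma adjusted p 0.597). With equal totals the log2 change was -0.0082 for DSTN, -0.039 for ARPC3, -0.040 for CNN2 and -0.052 for PLS1. After quantile normalization it was -0.058 for DSTN, -0.070 for ARPC3, -0.036 for ACTR2, -0.070 for CNN2 and -0.027 for PLS1. With the length and GC correction it was -0.054 for ARPC3, 0.050 for FLNA, -0.019 for PLS1 and 0.010 for MSN. Leaving out a library gave either sign for ACTB (-0.0057 to 0.12), DSTN (-0.029 to 0.10), TWF2 (-0.023 to 0.18), ARPC3 (-0.056 to 0.087), ARPC4 (-0.058 to 0.032), ARPC5 (-0.0087 to 0.12), CNN2 (-0.076 to 0.078), MYH14 (-0.16 to 0.030), FLNA (-0.13 to 0.039), PLS1 (-0.070 to 0.066), FSCN1 (-0.11 to 0.067), RDX (-0.10 to 0.084) and MSN (-0.050 to 0.023). Members called higher and lower (2 and 3) numbered 0 and 2 without a filter on low values, 10 and 5 with the length and GC correction, 0 and 2 without trend and robust fitting, and 5 were called lower after quantile normalization. Equal totals added calls for MYL12B, CFL1 and TPM4, and quantile normalization for MYL12B, MYL6, MYH9 and TPM4. A filter of 5 FPKM added ARPC5L. Leaving out a library gave 0 to 3 members higher and 2 to 4 lower, 1 related gene higher and 1 to 6 lower (from 2 and 3), and 85 to 403 genes higher and 157 to 597 lower overall (from 534 and 691), more than 1.5 times fewer without any library but treated replicate 3 and fewest without untreated replicate 2. Over all genes the counts were 53 and 100 without a filter, 1130 and 1197 with the length and GC correction, and 354 higher without trend and robust fitting. Related genes called numbered 0 higher and 1 lower without a filter, 5 and 10 with the length and GC correction, and 1 higher without trend and robust fitting; 6 were lower with a filter of 5 FPKM, 6 with equal totals, 5 with median ratio scaling and 6 after quantile normalization. The share of higher among all calls was 43.6%, or 34.0% with equal totals. The cause of these differences was not tested. DESeq2 was not run, since the table holds no counts.

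Replicate numbers were shared between groups, but same-numbered libraries did not deviate together (correlations -0.04, 0.01 and -0.02), and each untreated library correlated best with a treated one of another number. With the replicate block 69 genes were higher and 142 lower, 0 members higher and 2 lower, and 0 related genes higher and 1 lower; PFN2, ACTR3, TPM3, VCL, PAK1, IER2 and JUNB were not called (limma adjusted p 0.0569 for IER2). Depth was an estimate, and only LCP1 fell under the filter.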
